A study of Mus musculus with 33 samples.

Results

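Day 11 after fertilization was set against day 10 in a microarray survey of the mouse uterine microenvironment, the name that the labels give to the tissue taken. The comparison used 4 arrays of day 11 and 4 arrays of day 10, chosen by their labels, which are 8 of the 33 arrays in the series. The other arrays were of day 4 (4 arrays), day 6 (6 arrays), day 8 (4 arrays), day 12 (5 arrays) and uterus of mice that were not pregnant (6 arrays). All samples were total RNA from C57BL/6 mice aged 8 weeks, with no altered gene and no treatment named, and each was hybridised as biotin-labelled cRNA to an Illumina bead array. The labels do not say which parts of the implantation site were taken, whether tissue was pooled, or whether each array is a separate mouse, so the p-values measure the spread between these samples, which may be technical.

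Between these stages the mouse placenta takes shape. Trophoblast, the outer lineage of the conceptus, forms invasive giant cells, a junctional zone of spongiotrophoblast that secretes hormones, and a labyrinth in which maternal and fetal blood exchange gases and nutrients. The maternal decidua, the stroma that swelled after implantation and holds uterine natural killer (NK) cells, macrophages and new vessels, later thins out. Inside the conceptus the heart beats, the neural tube forms neurons, the liver bud grows, and primitive red cells made in the yolk sac circulate.

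On the arrays 16289 to 17158 probes per sample were detected, against 13097 to 18692 over the whole series. Values below are log2 intensities after background correction and quantile normalization, and a probe at or under about 5.32, the highest detection floor among the 8 arrays, was not distinguishable from background. Of 10412 genes tested, 531 differed at least 2-fold with a Benjamini-Hochberg adjusted p under 0.05 (limma), of which 312 were higher at day 11 (3.00% of genes tested) and 219 were lower (2.10%). With no background correction 123 genes did (63 higher, 60 lower), and with the authors' deposited log2 matrix 134 (70 higher, 64 lower). In these, 486 and 492 of the 531 kept an adjusted p under 0.05, but only 117 and 127 also kept the 2-fold size. Without the minimum fold, 857 genes were higher (8.23%) and 620 lower (5.95%). The median difference over all genes was 0.03, and 52.8% of genes were higher at day 11. The leading component of the 8 arrays took up 62.8% of their variance and separated the days, with scores of -29.3, -30.1, -24.8 and -19.4 at day 11, against 31.8, 29.1, 18.9 and 23.8 at day 10. Day 11 replicate 4 and day 10 replicate 3 lay nearest to the other day. Arrays of the same day correlated at 0.986 to 0.991 over genes, and arrays of different days at 0.953 to 0.975. Gene lists below are counted at adjusted p under 0.05 ("rose" or "fell") beside these shares. The spread of each gene was estimated over all 33 arrays. A fit to the 8 arrays alone called 17.2% of genes higher and 15.5% lower, and its counts are given where they differ by 1.5 times or more.

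**Figure D1:**
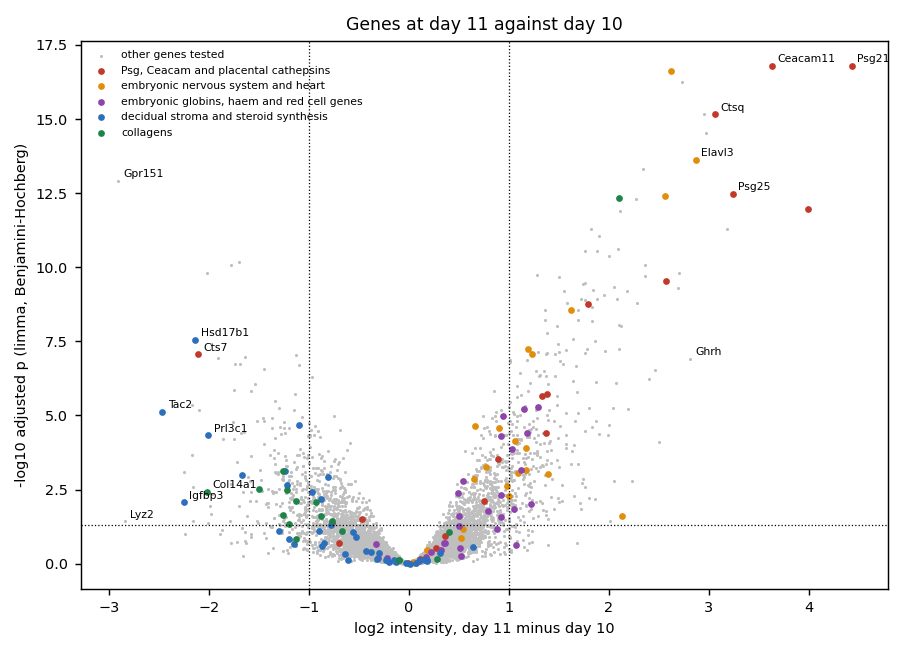
Each point is a gene, with the log2 difference of day 11 minus day 10 on the x axis and -log10 of the adjusted p on the y axis; dotted lines mark 2-fold and an adjusted p of 0.05. Coloured points are members of 5 sets of lists named in the legend. Among the labelled genes Psg21 (4.43) lies farthest right, level with Ceacam11 (3.63), and Gpr151 (-2.91) farthest left.

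Genes were ranked without symbols of clone type (such as Rik, LOC and Gm names) and without genes whose days overlapped. In that ranking the 4 largest rises were in the list of pregnancy-specific glycoproteins (Psg) and relatives of the carcinoembryonic antigen family (Ceacam). These are secreted or surface proteins of trophoblast encoded in clusters on chromosome 7. Of 14 measured members of 21 listed, 9 rose and 2 fell, with a median difference of 1.14, or 0.96 with genes undetected at day 10 set to their lower bound. Psg21 was measured at 9.43, 9.96, 9.10 and 8.37 at day 11, against 4.59, 4.53, 4.84 and 5.18 at day 10. It was thus clear on all 4 arrays of day 11 and not well above background on any of day 10, which makes it at least 15.3-fold higher at day 11 (difference 4.43 ± 0.19 (SE), adjusted p = 1.57e-17). Such a bound sets the mean of one day against the mean, over the arrays of the other day, of each array's own detection floor, or of the probe's own value where that is higher. Psg25 followed the same pattern, at 7.69, 8.42, 7.63 and 7.29 at day 11, against 4.51, 4.36, 4.69 and 4.52 at day 10, at least 5.57-fold higher. Psg27 had 9.25, 9.54, 8.78 and 8.44 at day 11, against 5.34, 4.82, 5.00 and 4.85 at day 10, where 1 array detected it (difference 4.00 ± 0.27). For all 3 Psg genes the lowest array of day 11 stood far above the highest of day 10, and day 11 replicate 2 was the highest. Ceacam11 had 11.51, 11.78, 11.07 and 10.78 at day 11, against 7.65, 7.25, 8.01 and 7.70 at day 10, where every array detected it (difference 3.63 ± 0.15, adjusted p = 1.57e-17).

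The 2 members that fell were Ceacam9 and Ceacam15. Ceacam9 averaged 8.16 ± 0.21 at day 11 and 8.63 ± 0.32 at day 10 (SD, n = 4 each), and Ceacam15 averaged 8.53 ± 0.38 at day 11 and 9.30 ± 0.28 at day 10. Both were called lower (differences -0.47 and -0.77, adjusted p = 0.0311 and 0.0413), but their arrays overlapped. The call of Ceacam9 was lost without day 11 replicate 3 or 4 or day 10 replicate 1 or 3 (adjusted p up to 0.165), and that of Ceacam15 without any one array except day 11 replicate 4 and day 10 replicate 2 (adjusted p up to 0.147). Psg22, Psg29 and Ceacam12 did not pass. Psg22 differed by -0.70 ± 0.35 (adjusted p = 0.206), and Ceacam12 was not detected on any of the 8 arrays. Psg29 had 7.59, 7.85, 7.48 and 7.80 at day 11, against 7.37, 7.39, 7.96 and 8.03 at day 10, and its difference of -0.01 ± 0.15 did not pass (adjusted p = 0.989). Among the members that rose, Ceacam13 (0.90 ± 0.17) and Ceacam14 (0.75 ± 0.20) each had a dimmer probe that did not pass (0.12 and 0.18). Probes of such similar genes may bind RNA of one another, so the value of a single Psg, Ceacam, prolactin-like or cathepsin gene is uncertain.

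The promoters of the 3 Psg genes with the largest rises are shown with that of Psg29, a member that did not pass, so that the letters can be compared. Each runs 5′ to 3′ from 250 bases before to 50 bases after the start of the gene (RefSeq, GRCm38.p6). Capitals mark runs of 12 or more bases found in all 3 of Psg21, Psg27 and Psg25.
Psg21, chr7:18656676-18656975, minus strand: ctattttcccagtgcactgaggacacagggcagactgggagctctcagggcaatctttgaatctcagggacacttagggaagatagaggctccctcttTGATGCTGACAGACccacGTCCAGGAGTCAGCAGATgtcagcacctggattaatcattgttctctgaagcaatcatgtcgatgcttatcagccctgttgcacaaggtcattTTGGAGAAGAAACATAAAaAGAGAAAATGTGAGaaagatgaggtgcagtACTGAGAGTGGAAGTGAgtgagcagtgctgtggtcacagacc
Psg27, chr7:18567256-18567555, minus strand: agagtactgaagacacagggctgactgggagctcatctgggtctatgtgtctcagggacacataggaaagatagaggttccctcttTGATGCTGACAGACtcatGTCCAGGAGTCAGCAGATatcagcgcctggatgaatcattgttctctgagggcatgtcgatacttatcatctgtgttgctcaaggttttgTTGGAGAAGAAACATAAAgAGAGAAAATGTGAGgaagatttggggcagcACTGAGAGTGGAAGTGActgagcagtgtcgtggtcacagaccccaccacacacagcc
Psg25, chr7:18532178-18532477, minus strand: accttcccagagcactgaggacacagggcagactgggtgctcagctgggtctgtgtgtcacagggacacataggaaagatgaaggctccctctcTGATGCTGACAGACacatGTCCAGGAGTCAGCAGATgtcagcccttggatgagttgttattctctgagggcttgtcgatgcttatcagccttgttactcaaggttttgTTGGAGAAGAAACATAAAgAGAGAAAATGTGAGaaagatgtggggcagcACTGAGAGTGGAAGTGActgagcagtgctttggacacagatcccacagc
Psg29, chr7:17203227-17203526, plus strand: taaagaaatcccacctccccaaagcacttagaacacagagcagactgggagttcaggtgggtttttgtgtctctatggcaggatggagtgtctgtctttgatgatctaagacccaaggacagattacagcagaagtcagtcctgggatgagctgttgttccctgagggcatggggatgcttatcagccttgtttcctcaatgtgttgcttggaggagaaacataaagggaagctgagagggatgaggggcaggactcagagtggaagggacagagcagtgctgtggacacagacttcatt
The 3 share 81 bases in 5 such runs. No stretch of 12 or more of these bases occurs unbroken in the promoter of Psg29. Near matches were not searched for, but the printed letters of Psg29 show some. They lie at the later of the 2 runs of 18 bases given below and at the last run in capitals. The lack of capitals in Psg29 thus does not mean that similar letters are absent. In a global alignment the promoters of Psg21 and Psg27 were identical over 79.1% of columns, Psg21 and Psg25 over 81.8%, and Psg27 and Psg25 over 84.4%, while Psg29 shared 68.0% with Psg21 and 72.7% with Psg25. Ceacam11, which rose, shared 51.4% with Psg21, 47.8% with Psg27 and 51.1% with Psg25. The longest runs common to all 3 are 2 of 18 bases. GTCCAGGAGTCAGCAGAT occurs in 8 of 32544 promoters (0.0246%), all of Psg genes, and TTGGAGAAGAAACATAAA in 6 (0.0184%), also all of Psg genes, but not in that of Psg18, which rose by 1.79 ± 0.17. Psg23, with a promoter 96.4% identical to that of Psg21, had 8.53, 9.08, 8.97 and 8.73 at day 11, against 6.88, 7.57, 7.59 and 7.78 at day 10, a difference of 1.37 ± 0.22. It was detected on every day 10 array, where Psg21 was not, and a dimmer probe of Psg23 did not pass (0.08). A shared run is a description of the letters and names no binding site.

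The placental cathepsins, cysteine proteases of trophoblast encoded in a rodent cluster on chromosome 13, included the sixth largest rise of that ranking. Of 6 measured members of 9 listed, 3 rose and 1 fell. Ctsq reached 11.36, 11.13, 11.02 and 10.81 at day 11, against 7.77, 7.57, 8.43 and 8.29 at day 10 (difference 3.07 ± 0.15, adjusted p = 6.95e-16). Ctsr reached 12.12, 12.06, 12.01 and 11.77 at day 11, against 9.16, 8.80, 9.93 and 9.79 at day 10 (2.57 ± 0.22). In both genes the day 10 arrays spread over a wider range than the day 11 arrays. Both stood in the ranking, which left out genes whose days overlapped. Ctsj, the brightest of the group, averaged 14.09 ± 0.12 at day 11 and 12.76 ± 0.32 at day 10 (SD), and rose by 1.33 ± 0.18. Cts7, known from early trophoblast giant cells, went the other way, with 5.12, 5.34, 5.24 and 5.93 at day 11, against 7.18, 7.68, 7.39 and 7.82 at day 10. Its difference was -2.11 ± 0.24 (adjusted p = 8.70e-08), and 2 of the 4 arrays of day 11 detected it. Cts6 and Ctsm were not detected on any of the 8 arrays.

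The placental prolactin-like hormones, which trophoblast secretes and which act on the ovary, the decidua and maternal metabolism, passed in both directions. Of 11 measured members of 23 listed, 4 rose and 2 fell (5 and 3 in the fit to the 8 arrays alone), and the median difference was 0.14. Prl2b1 had 12.07, 12.15, 12.47 and 11.89 at day 11, against 9.67, 10.07, 10.12 and 10.00 at day 10 (difference 2.18 ± 0.19, adjusted p = 6.32e-10). Prl2a1 rose by 0.99 ± 0.19. Prl4a1, known to act on NK cells, averaged 12.69 ± 0.16 at day 11 and 13.54 ± 0.16 at day 10 (SD), a fall of 0.85 on the log2 scale. Prl7c1 fell by 0.74 ± 0.17. Prl2c2 (proliferin), a hormone of giant cells that acts on vessels, averaged 12.43 ± 0.22 at day 11 and 12.92 ± 0.12 at day 10, and did not pass (difference -0.49 ± 0.21, adjusted p = 0.128), although the 4 arrays of each day did not overlap. Over all genes tested, 17.9% had all 4 day 11 arrays above all 4 of day 10, and 15.3% had all 4 below.

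In the junctional zone list, 2 of 11 measured genes rose, Tpbpb and Krt18, and none fell. The median difference was 0.57, and 7 rose and 1 fell in the fit to the 8 arrays alone. Tpbpb, a relative of the spongiotrophoblast marker trophoblast-specific protein alpha, had 6.60, 5.97, 5.53 and 5.48 at day 11, against 4.41, 4.36, 4.50 and 4.44 at day 10, where no array detected it. It was at least 1.53-fold higher at day 11. Ascl2, a transcription factor that maintains spongiotrophoblast, averaged 5.76 ± 0.31 at day 11 and 5.18 ± 0.10 at day 10 and missed the threshold (adjusted p = 0.0541). It passed without day 11 replicate 3 (0.68, adjusted p = 0.0370).

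Labyrinth genes rose in 4 of 13 measured cases and fell in 1, with a median difference of 0.55 (7 rose and 2 fell in the fit to the 8 arrays alone). Synb and Syna encode the syncytins, envelope proteins of captured retroviruses that fuse labyrinth trophoblast into syncytium. Synb had 7.01, 7.32, 7.26 and 7.46 at day 11, against 5.51, 5.50, 6.34 and 5.36 at day 10 (difference 1.59 ± 0.15, adjusted p = 1.55e-09). Syna had 5.88, 5.83, 6.02 and 5.81 at day 11, against 4.45, 4.39, 4.57 and 4.87 at day 10, below detection, and was at least 1.52-fold higher. Thus both syncytins stood above day 10 on every array of day 11, with day 10 replicate 3 the nearest for Synb. Dlx3, a homeobox factor needed for the labyrinth, rose by 1.39 ± 0.18. Cebpa, a factor of trophoblast, liver and fat, was not detected at day 11 and was at least 1.07-fold lower there (adjusted p = 0.0354). It lost the call without any one array except day 11 replicate 3 and day 10 replicate 1 (adjusted p up to 0.106), and its arrays overlapped between the days.

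Among trophoblast transcription factors 4 of 17 measured rose and none fell, with a median difference of 0.17 (6 and 1 in the fit to the 8 arrays alone). Cdx2, a homeobox factor of the trophoblast and hindgut lineages, was tight within each day, at 7.73, 7.61, 7.70 and 7.63 at day 11, against 6.25, 6.19, 6.37 and 6.35 at day 10 (difference 1.38 ± 0.14). Rhox5 rose by 0.71 ± 0.21 and Tfap2a by 0.71 ± 0.23 (adjusted p = 0.0206 and 0.0378). Tfap2a lost the call without any one array except day 10 replicate 4 (adjusted p up to 0.124), and Rhox5 without day 11 replicate 3 or day 10 replicate 1 or 2 (up to 0.0766). Hand1, needed for giant cells, averaged 6.05 ± 0.19 at day 11 and 5.90 ± 0.32 at day 10, with overlapping arrays. The placental transporters showed few calls, with 2 of 17 rising and 1 falling and a median of -0.13 (4 and 6 in the fit to the 8 arrays alone). Folr1, the folate receptor, rose by 0.89 ± 0.24, though a dimmer probe did not pass (0.57), and Slc7a8, an amino acid transporter, fell by 0.76 ± 0.20. Slc38a4, which also rose, lost the call without any one of 4 arrays (adjusted p up to 0.1005).

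Outside these lists, Ghrh, which encodes growth hormone releasing hormone and is expressed in hypothalamus and placenta, had 10.05, 10.26, 10.47 and 10.25 at day 11, against 7.07, 7.44, 7.50 and 7.79 at day 10 (difference 2.81 ± 0.32, adjusted p = 1.25e-07). Taf7l, a TATA-box factor relative known from testis, had 7.49, 8.13, 7.34 and 7.31 at day 11, against 4.92, 4.33, 4.72 and 4.44 at day 10, and was at least 4.88-fold higher. Both came from the ranking, which took only genes whose days did not overlap.

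**Figure D2:**
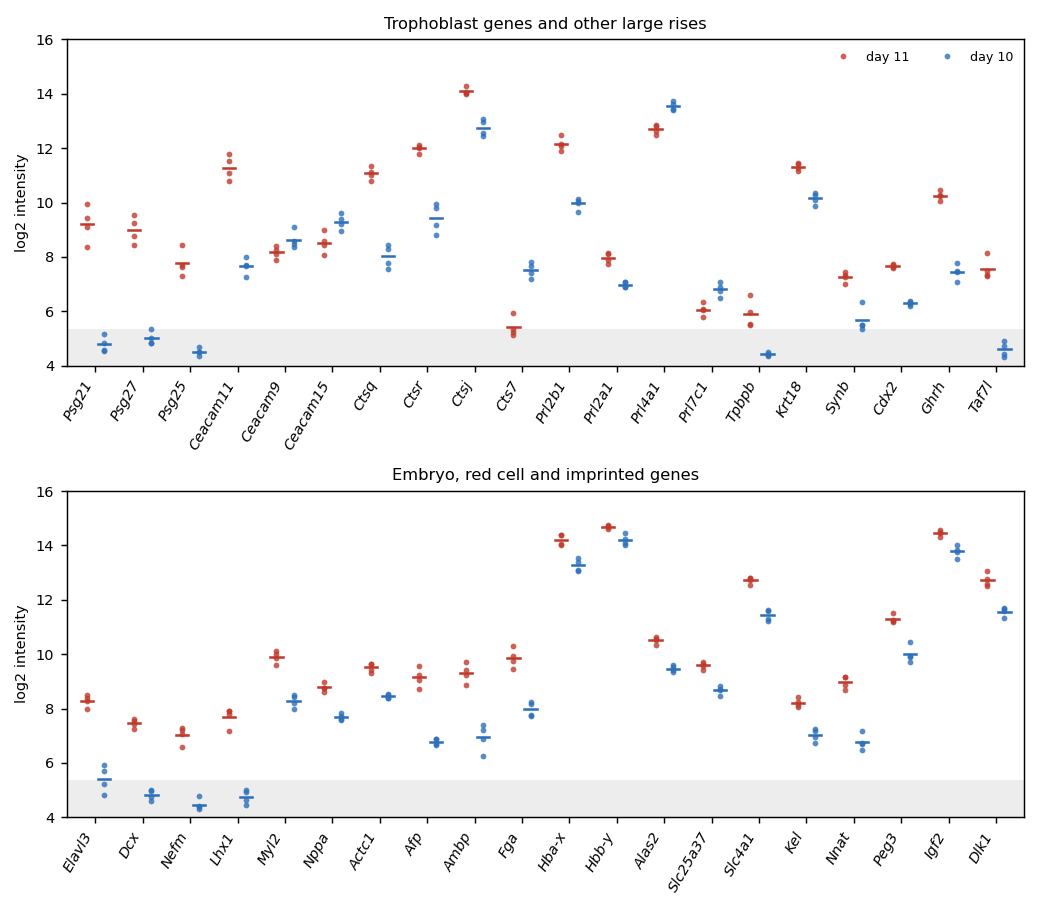
Log2 intensity of single genes on each array of day 11 (red) and day 10 (blue), with a bar at the mean of 4 arrays; the grey band lies under the highest detection floor of the 8 arrays (5.32). Psg21, Psg25, Taf7l, Dcx, Nefm and Lhx1 lie above the band at day 11 and within it at day 10.

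No member of the lists of embryonic nervous system, heart or liver fell. In these bulk samples more cells of a type and more RNA per cell cannot be told apart, nor fewer cells from less RNA per cell below. Of 13 measured genes of the embryonic nervous system, 10 rose, with a median difference of 1.19. Elavl3, an RNA-binding protein of postmitotic neurons, had 8.26, 8.51, 8.39 and 7.98 at day 11, against 4.81, 5.21, 5.72 and 5.93 at day 10 (difference 2.87 ± 0.16, adjusted p = 2.36e-14). Dcx, a microtubule protein of migrating neurons, had 7.44, 7.56, 7.60 and 7.23 at day 11, against 4.75, 4.59, 5.00 and 4.98 at day 10, at least 4.52-fold higher. Nefm, a neurofilament subunit, was at least 3.37-fold higher at day 11, and Map2, a dendrite protein, rose by 2.13 ± 0.65. Dcx and Nefm were undetected on every day 10 array and Elavl3 on 2 of 4, and all 3 were detected on every day 11 array. Map2 lost its call without day 11 replicate 1 or 3 or day 10 replicate 2 (adjusted p up to 0.0839), and its other 2 probes did not pass (1.24 and 0.17). The patterning genes Otx2 of the forebrain and En1 of the midbrain rose by 1.24 ± 0.14 and 1.19 ± 0.13.

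Lhx1, Myt1, Gsc, Bcl11a and Cntn2, none of them a list member, were also among the 15 largest rises of the ranking. Lhx1, a LIM homeobox factor of head organizer, kidney and neurons, had 7.90, 7.92, 7.81 and 7.17 at day 11, against 4.45, 4.62, 4.92 and 5.01 at day 10, at least 5.35-fold higher. Myt1, a zinc finger factor of neural progenitors, was at least 3.71-fold higher at day 11, and Gsc (goosecoid), a homeobox factor of the head, at least 4.12-fold. All of these were undetected on every array of day 10. Bcl11a, a zinc finger factor of neurons and blood cells, rose by 2.69 ± 0.24. Cntn2, an axonal adhesion protein, had 8.43, 8.54, 8.43 and 7.99 at day 11, against 4.92, 4.85, 5.90 and 4.98 at day 10 (3.18 ± 0.23), but a dimmer probe of Cntn2 differed by -0.37 and did not pass (adjusted p = 0.419).

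Of 10 measured heart genes, 8 rose, with a median of 0.88. Myl2, the ventricular myosin light chain, had 10.02, 9.85, 10.10 and 9.61 at day 11, against 7.99, 8.21, 8.43 and 8.48 at day 10 (difference 1.62 ± 0.15, adjusted p = 2.79e-09). Nppa, the atrial natriuretic peptide, rose by 1.09 ± 0.23, cardiac actin Actc1 by 1.06 ± 0.18 (0.45 and not passing in a dimmer probe), and the Z-disc protein Actn2 by 1.00 ± 0.25. These 4 were picked by size of difference. The day 11 arrays all lay above those of day 10 in 8 of the 10 list members, against 17.9% of all genes tested. The mean log2 intensity over the list ran from 7.72 to 8.01 over the day 11 arrays, against 6.91 to 7.18 over the day 10 arrays.

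The liver and the yolk sac secrete many of the same plasma proteins, and the lists share members. Of 14 measured liver genes, 8 rose, with a median of 0.82, or 0.70 with bounds. Ambp, the precursor of a plasma protease inhibitor and a lipocalin, had 9.41, 9.70, 9.25 and 8.85 at day 11, against 6.24, 6.88, 7.22 and 7.41 at day 10 (difference 2.37 ± 0.19). The fibrinogen chains Fga and Fgg rose by 1.89 ± 0.17 and 1.49 ± 0.16, and Vtn (vitronectin) was at least 2.50-fold higher at day 11. In the yolk sac list, which also covers visceral endoderm, 11 of 18 genes rose and 1 fell, with a median of 0.77. Afp, the fetal serum protein alpha-fetoprotein, had 8.72, 9.25, 9.57 and 9.05 at day 11, against 6.89, 6.88, 6.65 and 6.71 at day 10 (2.37 ± 0.20, adjusted p = 2.04e-10). Apoa2, an apolipoprotein of high density lipoprotein, rose by 1.68 ± 0.20, and Ttr (transthyretin), a thyroid hormone carrier, by 1.37 ± 0.40. The call of Ttr was lost without day 11 replicate 2 (adjusted p = 0.0511). The member that fell, Sox17, is a factor of endoderm and also of arterial endothelium, and is given with the endothelium below.

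In the list of allantois and fetal mesenchyme, 7 of 19 measured genes rose and 1 fell, and the median was -0.12 (8 and 8 in the fit to the 8 arrays alone). The largest rises were in Msx1 (1.31 ± 0.34) and Twist1 (1.25 ± 0.23), transcription factors of limb and face mesenchyme, though a dimmer probe of Msx1 did not pass (0.65). The member that fell was Col1a1. Col2a1, the collagen of embryonic cartilage and notochord, had 9.44, 9.60, 9.17 and 9.03 at day 11, against 7.09, 6.90, 7.63 and 7.20 at day 10 (2.11 ± 0.14, adjusted p = 4.59e-13). It was the only one of 17 measured collagens that rose (3 did in the fit to the 8 arrays alone).

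Of the 3 embryonic globins, 2 rose (3 in the fit to the 8 arrays alone), and all averaged over 13 on both days. Hba-x (zeta globin) had 14.40, 14.06, 14.01 and 14.38 at day 11, against 13.09, 13.07, 13.54 and 13.39 at day 10 (difference 0.94 ± 0.14, adjusted p = 1.08e-05). Hbb-y (epsilon y) averaged 14.69 ± 0.06 at day 11 and 14.20 ± 0.20 at day 10 (SD), and rose by 0.49 ± 0.12. Hbb-bh1 averaged 14.68 ± 0.08 at day 11 and 14.18 ± 0.19 at day 10 without overlap, but missed the threshold (0.50 ± 0.18, adjusted p = 0.0542), and passed without day 10 replicate 3 (adjusted p = 0.0408). At day 8 the same probes averaged 4.42, 4.48 and 4.94, under the floor. Whether signals this bright were compressed was not tested. None of the 6 listed adult globin genes was measured.

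Of 10 measured genes of haem synthesis and iron supply, 3 rose and none fell (6 in the fit to the 8 arrays alone), with a median of 0.44. Alas2, the erythroid enzyme of the first step of haem synthesis, had 10.57, 10.65, 10.51 and 10.35 at day 11, against 9.41, 9.53, 9.34 and 9.60 at day 10 (1.05 ± 0.30, adjusted p = 0.0148). Slc25a37 (mitoferrin), which brings iron into mitochondria, rose by 0.92 ± 0.15 and Urod, a later enzyme of the pathway, by 0.54 ± 0.12. Among 16 measured red cell membrane genes and erythroid factors, 10 rose and none fell, with a median of 0.92. Slc4a1, the anion exchanger band 3, had 12.82, 12.82, 12.72 and 12.53 at day 11, against 11.21, 11.30, 11.64 and 11.58 at day 10 (1.29 ± 0.18, adjusted p = 5.22e-06). Kel, a membrane blood group protein, rose by 1.19 ± 0.19 and Sptb, the spectrin beta chain, by 1.15 ± 0.16, although another probe of Sptb did not pass (0.14). The erythroid transcription factors Nfe2, Klf1 and Tal1 rose by 1.22 ± 0.33, 1.03 ± 0.18 and 1.12 ± 0.23. Gfi1b rose too, but the erythroid GATA factor Gata1, also measured, did not pass. The day 11 arrays all lay above those of day 10 in 6 of 10 haem and 10 of 16 red cell genes. Over all genes tested 17.9% did so, and the genes named here were mostly picked by size of difference or after their values were seen.

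The promoters of 3 of these genes are printed because erythroid GATA factors bind the letters searched for here. Capitals mark AGATAA or TGATAA read on either strand, over the same 250 bases before to 50 after the gene start (RefSeq, GRCm38.p6).
Alas2, chrX:150547167-150547466, plus strand: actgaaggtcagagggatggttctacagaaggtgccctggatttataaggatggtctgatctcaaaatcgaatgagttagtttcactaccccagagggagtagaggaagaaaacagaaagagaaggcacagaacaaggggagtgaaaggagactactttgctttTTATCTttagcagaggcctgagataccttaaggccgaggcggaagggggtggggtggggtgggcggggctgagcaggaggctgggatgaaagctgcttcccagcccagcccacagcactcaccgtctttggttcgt
Hba-x, chr11:32276350-32276649, plus strand: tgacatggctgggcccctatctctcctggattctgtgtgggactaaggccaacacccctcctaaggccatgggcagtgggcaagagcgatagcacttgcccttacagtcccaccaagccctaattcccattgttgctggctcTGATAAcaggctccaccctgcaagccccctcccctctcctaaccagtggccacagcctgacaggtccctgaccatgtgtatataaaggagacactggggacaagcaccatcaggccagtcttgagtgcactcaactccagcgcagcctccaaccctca
Hbb-y, chr7:103853158-103853457, minus strand: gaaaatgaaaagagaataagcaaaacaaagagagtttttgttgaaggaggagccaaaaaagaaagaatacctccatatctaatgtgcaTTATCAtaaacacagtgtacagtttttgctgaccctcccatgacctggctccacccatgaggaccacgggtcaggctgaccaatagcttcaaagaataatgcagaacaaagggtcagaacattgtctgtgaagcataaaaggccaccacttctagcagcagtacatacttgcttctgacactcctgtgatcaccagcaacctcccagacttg
Each of the 3 holds 1 match. Over the 32544 promoters of this length that were used, 18.5% hold at least 1. Of 22 red cell genes with a promoter in the table (of 29 measured), 12 hold one in any of their promoters. That count is by gene and the share is by promoter, so they cannot be set against each other. The 3 shown were picked because they hold one, and a match does not show binding.

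Imprinted genes, which are read from only the paternal or only the maternal copy and are many of them active in placenta and embryo, were described by parent. Dlk1 stands in this list and also in the nervous system, liver and mesenchyme lists. Of 12 measured paternally expressed genes, 8 rose and none fell, with a median of 0.82. Nnat (neuronatin), of brain, had 9.15, 9.16, 8.68 and 8.86 at day 11, against 6.48, 6.69, 7.17 and 6.73 at day 10 (2.20 ± 0.31, adjusted p = 5.91e-06). Peg3, a zinc finger factor, rose by 1.28 ± 0.19 and Zdbf2 by 1.27 ± 0.18. Dlk1, a Notch-type ligand of fetal tissues, had 12.50, 12.59, 12.77 and 13.07 at day 11, against 11.32, 11.57, 11.70 and 11.65 at day 10. These genes were picked by size of difference. The day 11 arrays all lay above those of day 10 in 9 of the 12 list members, against 17.9% of all genes tested. Igf2, the fetal growth factor, averaged 14.46 ± 0.10 at day 11 and 13.78 ± 0.21 at day 10 (SD) and did not pass (0.67 ± 0.27, adjusted p = 0.0969), although the days did not overlap. Of 14 maternally expressed genes, 2 rose, namely Slc22a18 (1.17 ± 0.23) and Ppp1r9a (0.97 ± 0.20), and none fell, with a median of 0.30 (6 and 3 in the fit to the 8 arrays alone).

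In the insulin-like growth factor (IGF) system 2 of 15 measured genes rose and 3 fell (3 and 6 in the fit to the 8 arrays alone). Igf2bp1 and Igf2bp3, RNA-binding proteins of Igf2 mRNA, rose, the second by 1.20 ± 0.20. Igfbp3, Igfbp6 and Igfbp7, of the binding proteins of the secreted factors, fell, while Igfbp2 (-0.13), Igfbp4 (0.16) and Igfbp5 (-0.51) did not pass. Igfbp3 had 6.77, 7.64, 7.24 and 7.17 at day 11, against 9.80, 9.25, 9.30 and 9.45 at day 10 (difference -2.25 ± 0.59, adjusted p = 0.00845), and Igfbp7 had 10.32, 10.46, 11.17 and 10.99 at day 11, against 12.40, 12.54, 12.10 and 12.21 at day 10 (-1.58 ± 0.29). Igfbp6 fell by 1.00 ± 0.19, and a dimmer probe of Igfbp3 did not pass (-1.27).

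All 19 measured mitosis genes were higher at day 11, with a median of 0.62. Of these 5 rose, and 18 did in the fit to the 8 arrays alone. Over all genes tested 8.23% rose, and 17.2% in the fit to the 8 arrays alone. Incenp, of the chromosomal passenger complex, averaged 8.99 ± 0.07 at day 11 and 8.22 ± 0.21 at day 10 (SD) (0.77 ± 0.20, adjusted p = 0.00927). Birc5 (survivin), of the same complex, rose by 0.70 ± 0.20, and lost the call without day 10 replicate 2 (adjusted p = 0.0554). Kif4 lost the call without any one of the 8 arrays (adjusted p up to 0.138) and Cdca8 without any one of 5 (up to 0.0946). Of 29 DNA replication genes, 26 were higher, with a median of 0.37; 3 rose and 1 fell, and in the fit to the 8 arrays alone 18 rose. Rfc5, of the clamp loader, rose by 0.69 ± 0.20 (lost without day 11 replicate 2 or day 10 replicate 1, adjusted p up to 0.0584). The other rises were lost too, Fen1 without any one of 7 arrays (up to 0.157) and Pole without any one of 3 (up to 0.1195). Rrm2, a subunit of ribonucleotide reductase, was the exception, with 10.80, 10.70, 10.60 and 10.89 at day 11, against 11.46, 11.56, 11.51 and 11.36 at day 10. Its difference was -0.72 ± 0.22 (adjusted p = 0.0208, and up to 0.0597 without day 11 replicate 2 or 3 or day 10 replicate 2). Its second probe also fell (-0.91).

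**Figure D3:**
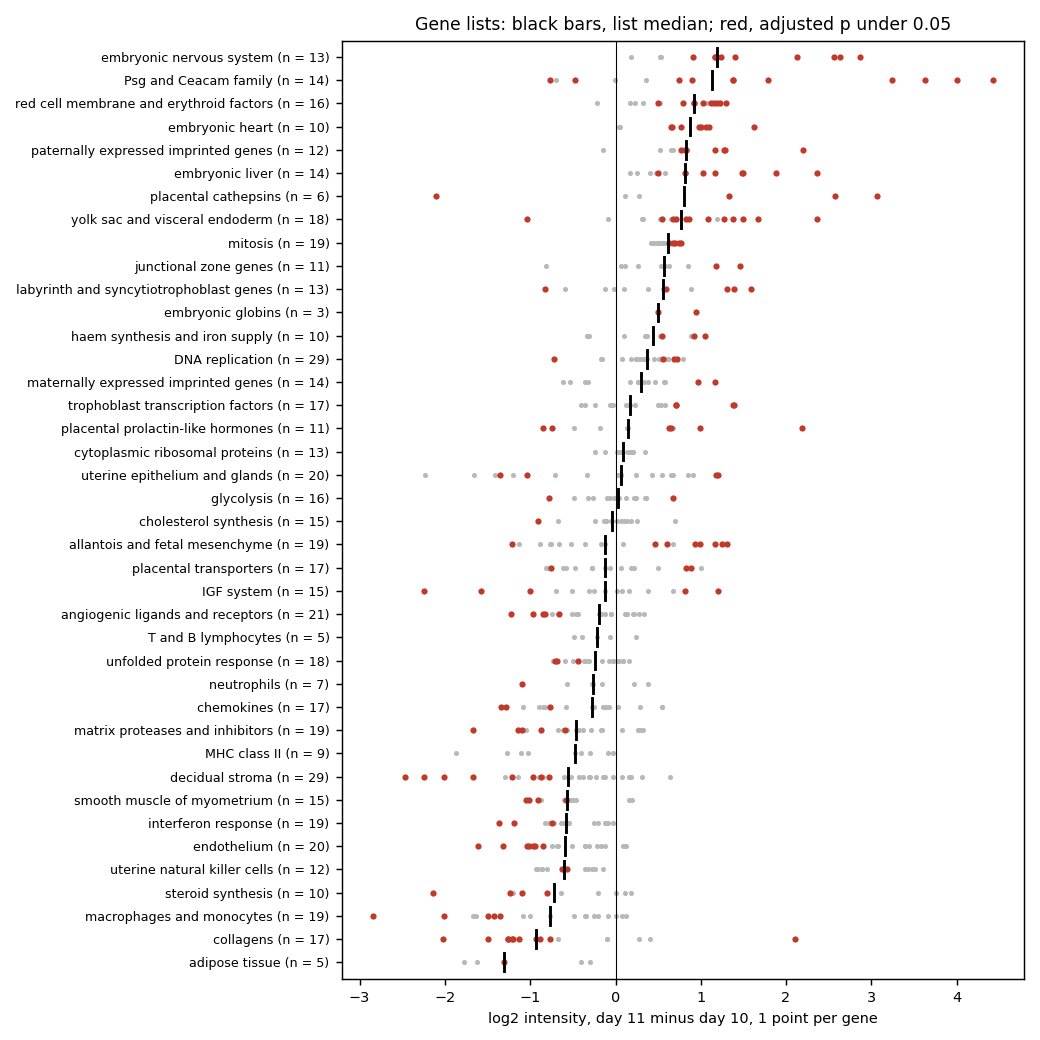
Differences of day 11 minus day 10 on the log2 scale for the measured members of 40 gene lists, 1 point per gene, red where the adjusted p was under 0.05, with a black bar at each list's median. Medians run from 1.19 for the embryonic nervous system to -1.31 for the 5 adipose tissue genes (-0.91 with genes undetected at day 11 set to their bound, against -0.93 for the collagens), and the 13 ribosomal protein genes have a median of 0.09 and no call.

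Of 29 measured genes of the decidual stroma, 8 fell and none rose, with a median of -0.56; in the fit to the 8 arrays alone 17 fell and 1 rose. Tac2, the precursor of neurokinin B, had 7.99, 7.99, 8.67 and 8.39 at day 11, against 10.76, 11.02, 10.35 and 10.77 at day 10 (difference -2.47 ± 0.36, adjusted p = 7.66e-06). Prl3c1, a prolactin-like hormone of the decidua, had 5.44, 5.52, 6.12 and 6.97 at day 11, against 8.39, 8.66, 7.49 and 7.53 at day 10 (-2.01 ± 0.33). For Prl3c1 the days came closest at day 11 replicate 4 and day 10 replicate 3. Adamts1, a protease induced by progesterone, fell by 1.67 ± 0.35, while its other 2 probes did not pass (-0.66 and -0.67). Pgr, the progesterone receptor, had 6.45, 6.21, 6.24 and 6.36 at day 11, against 7.26, 7.16, 7.26 and 7.10 at day 10 (-0.88 ± 0.22, adjusted p = 0.00646), and a dimmer probe did not pass (-0.42). Wnt6, a ligand needed for decidualization, fell by 1.22 ± 0.27. Prl8a2 (decidual prolactin-related protein) averaged 14.06 ± 0.17 at day 11 and 14.36 ± 0.20 at day 10 and did not pass (adjusted p = 0.430).

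The largest fall of the ranking was in Gpr151, an orphan receptor, with 5.18, 5.34, 5.24 and 4.91 at day 11, against 8.17, 8.33, 7.81 and 8.01 at day 10. Its difference was -2.91 ± 0.18 (adjusted p = 1.21e-13), and 1 of 4 arrays of day 11 detected it. Further large falls were in Aldh3a1, an aldehyde dehydrogenase (-2.17 ± 0.30), Clec11a, a secreted growth factor (-2.17 ± 0.40), Mt3, a metallothionein (-2.10 ± 0.30), and Ldhd, the mitochondrial D-lactate dehydrogenase (-2.02 ± 0.17). Ldhd was the tightest of them, with 6.09, 6.05, 5.89 and 6.50 at day 11, against 8.12, 8.13, 8.18 and 8.20 at day 10, and its other 2 probes fell too (-2.21 and -1.26). Spink8, a protease inhibitor, averaged 6.19 ± 0.12 at day 11 and 8.36 ± 0.48 at day 10 (SD) (-2.16 ± 0.71, adjusted p = 0.0369), and lost the call without any one array except day 10 replicate 3 (adjusted p up to 0.115).

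Steroid synthesis fell in 4 of 10 measured genes, with a median of -0.72 and no rise (6 fell in the fit to the 8 arrays alone). Hsd17b1, which makes estradiol from estrone, had 5.22, 5.27, 5.08 and 5.87 at day 11, against 7.76, 7.61, 7.30 and 7.31 at day 10 (-2.14 ± 0.23, adjusted p = 2.74e-08). Scarb1, a receptor for lipoprotein cholesterol, fell by 1.24 ± 0.25. Cyp11a1, which cuts the cholesterol side chain, averaged 8.51 ± 0.32 at day 11 and 9.61 ± 0.28 at day 10 (SD) (-1.10 ± 0.17). Cyp17a1, which makes androgens and in mice is expressed by placental trophoblast, averaged 10.50 ± 0.16 at day 11 and 11.31 ± 0.27 at day 10 (-0.81 ± 0.17). At day 8 Hsd17b1 averaged 9.55, above its day 10 arrays, and Cyp17a1 averaged 4.93, below its own. Of 15 cholesterol synthesis genes only Ebp fell (-0.91 ± 0.22) and none rose (2 and 1 in the fit to the 8 arrays alone).

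Of 17 measured collagens, 10 fell and 1 rose (Col2a1, above), with a median of -0.93. Col1a1 and Col1a2 encode the chains of type I collagen. Col1a1 had 10.80, 10.63, 10.28 and 10.77 at day 11, against 11.70, 11.78, 12.11 and 11.75 at day 10 (-1.21 ± 0.29, adjusted p = 0.00331), and Col1a2 had 7.75, 7.77, 8.20 and 8.19 at day 11, against 10.12, 9.67, 8.94 and 9.17 at day 10 (-1.50 ± 0.35). Both were lower on every array of day 11. Col14a1, a fibril-associated collagen, fell by 2.02 ± 0.48 and Col6a1 by 1.26 ± 0.26. Of 19 matrix proteases and inhibitors, 5 fell and none rose (12 fell in the fit to the 8 arrays alone), among them Mmp23 (-1.14 ± 0.15) and the inhibitor Timp1 (-0.87 ± 0.20).

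**Figure D4:**
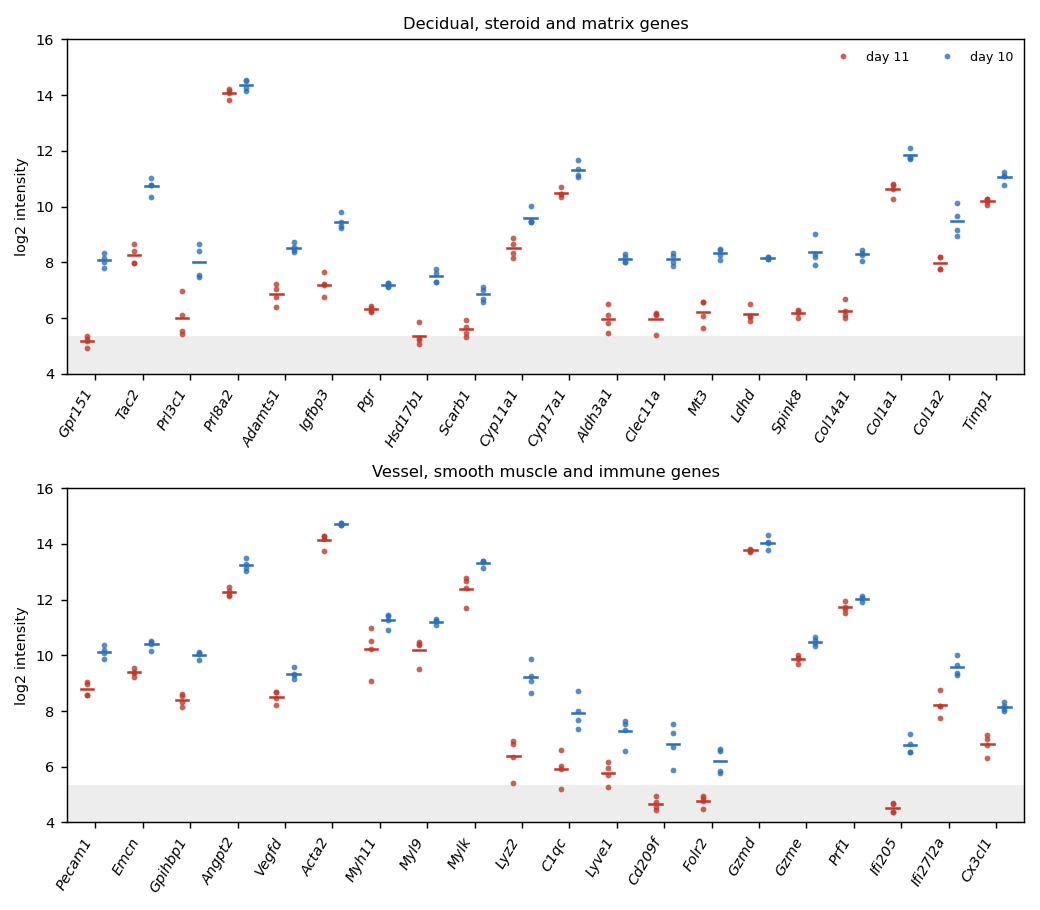
Log2 intensity of single genes on each array of day 11 (red) and day 10 (blue), with a bar at the mean of 4 arrays; the grey band lies under the highest detection floor of the 8 arrays (5.32). Cd209f, Folr2 and Ifi205 lie in the band at day 11 and above it at day 10, and day 11 replicate 3 is the low point of Acta2, Myh11, Myl9 and Mylk.

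Of 20 measured endothelial genes, 7 fell and none rose (12 fell in the fit to the 8 arrays alone), with a median of -0.59. Pecam1 (CD31), the junction protein of all endothelium, had 8.59, 8.97, 8.59 and 9.05 at day 11, against 10.09, 10.19, 10.36 and 9.85 at day 10 (-1.32 ± 0.27, adjusted p = 0.000896), and its other 2 probes fell as well (-1.14 and -1.04). Gpihbp1, of capillaries, fell by 1.61 ± 0.34 (-2.62 in a second probe), Emcn (endomucin) by 1.01 ± 0.26, and Sox17 by 1.04 ± 0.26, whose dimmer probe did not pass (-0.65). Of 21 angiogenic ligands and receptors, 5 fell and none rose, with a median of -0.20. Angpt4 and Tie1, the latter also in the endothelial list, each lost the call without any one of 6 arrays (adjusted p up to 0.0985 and 0.120). Angpt2, a ligand that loosens vessels and that the list shares with the decidual stroma, had 12.15, 12.14, 12.30 and 12.44 at day 11, against 13.13, 13.48, 13.27 and 13.04 at day 10 (-0.97 ± 0.23, adjusted p = 0.00381), and a second probe fell too (-1.88). Vegfd, a ligand of lymphatic and blood vessels, fell by 0.82 ± 0.23.

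Of 15 measured genes of smooth muscle, the bulk of the uterine wall, 4 fell and none rose, with a median of -0.57. In the fit to the 8 arrays alone 13 fell. Tpm2 did not pass with the probe used (-0.55) or a dimmer probe (-0.24), but another dimmer probe rose (1.62, adjusted p = 0.000308). Acta2, smooth muscle actin, had 14.28, 14.19, 13.73 and 14.29 at day 11, against 14.67, 14.68, 14.74 and 14.74 at day 10 (-0.58 ± 0.13, adjusted p = 0.00199). Its other 3 probes fell by more (-1.61, -0.79 and -1.79, adjusted p = 0.00962, 0.0349 and 0.0118). Mylk, the myosin light chain kinase, had 12.65, 12.43, 11.71 and 12.78 at day 11, against 13.37, 13.38, 13.35 and 13.13 at day 10 (-0.91 ± 0.18), and Myl9 fell by 1.01 ± 0.23. Day 11 replicate 3 was the lowest in each. Myh11, smooth muscle myosin, was furthest apart on that array, with 10.53, 10.23, 9.09 and 10.99 at day 11, against 11.43, 11.42, 11.27 and 10.91 at day 10. Its call (-1.04 ± 0.31, adjusted p = 0.0218) was lost without day 11 replicate 3 (-0.67, adjusted p = 0.143) and without day 10 replicate 1 or 2 (adjusted p up to 0.0653). The mean log2 intensity over the list ran from 8.84 to 9.57 over the day 11 arrays, against 9.81 to 9.93 over those of day 10. How much uterine wall was taken with each sample is not recorded, and its part in the falls was not tested.

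The epithelial and gland list had 2 rises and 2 falls among 20 genes, and a median of 0.06 (7 and 6 in the fit to the 8 arrays alone). Cldn10 fell by 1.35 ± 0.25 and Cldn3 by 1.04 ± 0.29 (lost without day 11 replicate 2, adjusted p = 0.0615), both tight junction claudins. Cldn4, another claudin, rose by 1.20 ± 0.35 (lost without day 10 replicate 1, adjusted p = 0.0632). Krt18, which rose, is a keratin of trophoblast as well and stands in the junctional zone list too.

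Macrophage genes were low on both days, with a mean over the list of 5.73 to 6.10 on the day 11 arrays, against 6.50 to 7.13 at day 10, and Ccr2, Fcgr1 and Itgam were not detected on any of the 8. Of 19 measured genes, 5 fell and none rose, with a median of -0.77, and 9 fell in the fit to the 8 arrays alone. Of the 5, Folr2 lost the call without any one of 7 arrays (adjusted p up to 0.120) and Mrc1 without any one of 4 (up to 0.101). Lyz2, lysozyme of macrophages and neutrophils, had 5.40, 6.36, 6.93 and 6.80 at day 11, against 9.87, 9.07, 8.66 and 9.25 at day 10. Lyz2 had a wide standard error (-2.84 ± 0.93, adjusted p = 0.0376). It lost the call without any one array except day 11 replicate 3 and day 10 replicate 3 (adjusted p up to 0.117), and a dimmer probe did not pass (-0.88). C1qc, a complement subunit made by macrophages, had 5.21, 5.92, 6.61 and 6.01 at day 11, against 8.73, 7.69, 7.34 and 8.01 at day 10 (-2.01 ± 0.68, adjusted p = 0.0437), and lost the call without the same 6 single arrays (up to 0.140). Lyve1, a hyaluronan receptor of resident macrophages and lymphatic endothelium, fell by 1.49 ± 0.30 (adjusted p = 0.000719). Cd209f, a C-type lectin that is not in the list, had 4.56, 4.46, 4.95 and 4.73 at day 11, below detection, against 7.54, 6.72, 5.87 and 7.20 at day 10, and was at least 3.01-fold lower at day 11 (adjusted p = 0.0026). In Lyz2, C1qc, Lyve1 and Cd209f alike, day 11 replicate 3 was the highest of its day and day 10 replicate 3 the lowest of its day. Lyz2 and Cd209f came from the ranking, which left out genes whose days overlapped.

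All 12 measured genes of uterine NK cells were below day 10, with a median of -0.60. Of these 2 fell, and 8 did in the fit to the 8 arrays alone. Over all genes tested 5.95% fell, and 15.5% in the fit to the 8 arrays alone. The brightest, the granzyme Gzmd, had 13.72, 13.77, 13.82 and 13.75 at day 11, against 13.79, 14.08, 14.03 and 14.30 at day 10, and did not pass (-0.28 ± 0.33, adjusted p = 0.637). Perforin, Prf1, was likewise -0.32 ± 0.28 (adjusted p = 0.507). Gzme, a second granzyme, averaged 9.86 ± 0.14 at day 11 and 10.49 ± 0.14 at day 10 (SD) (-0.63 ± 0.22, adjusted p = 0.0471), and Cd244a, a receptor of NK cells, differed by -0.57 ± 0.19. Gzme lost the call without any one of the 8 arrays (adjusted p up to 0.129) and Cd244a without any one except day 11 replicates 2 and 4 (up to 0.143).

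All 19 measured interferon response genes were below day 10, with a median of -0.59 and 3 falls (11 in the fit to the 8 arrays alone). Ifi27l2a had 8.18, 8.19, 7.74 and 8.74 at day 11, against 9.66, 9.31, 9.36 and 10.01 at day 10 (-1.37 ± 0.32, adjusted p = 0.00354), Gbp2, a guanylate-binding protein, fell by 1.19 ± 0.30 (a dimmer probe did not pass, -0.22), and Ifi27 by 0.75 ± 0.11. Ifi205, an interferon-inducible gene outside the list, was not well above background on any day 11 array, against 7.18, 6.82, 6.53 and 6.54 at day 10, at least 2.88-fold lower at day 11, but a dimmer probe did not pass (-0.40). All 9 measured genes of MHC class II were lower, with a median of -0.48 and no call (4 in the fit to the 8 arrays alone). Their invariant chain, Cd74, had 6.89, 8.03, 7.56 and 7.15 at day 11, against 9.76, 8.79, 9.04 and 9.50 at day 10, without overlap (-1.86 ± 0.70, adjusted p = 0.0730). Of 17 chemokines, 3 fell and none rose (8 and 1 in the fit to the 8 arrays alone), among them Cx3cl1 (-1.34 ± 0.28) and Ccl27a, which had 13.26, 12.91, 13.43 and 13.51 at day 11, against 14.08, 14.19, 13.90 and 13.98 at day 10. The call of Ccl27a (adjusted p = 0.0156) was lost without day 11 replicate 2 or day 10 replicate 2 (up to 0.0784). Ccl9, which also fell, lost its call without any one of 7 arrays (up to 0.142).

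Of 7 neutrophil genes, 1 fell, the protease Mmp9 (-1.10 ± 0.34), and 2 did in the fit to the 8 arrays alone. It lost the call without day 11 replicate 1 or 2 or day 10 replicate 1 or 4 (adjusted p up to 0.0731). Of 5 adipose tissue genes, with a median of -1.31, or -0.91 with bounds, 1 fell, Plin4, a lipid droplet protein (-1.31 ± 0.24), and 2 did in the fit to the 8 arrays alone. None of 13 measured ribosomal protein genes passed in either direction, and Rpl41 averaged 14.78 ± 0.14 at day 11 and 14.75 ± 0.05 at day 10 (SD). Glycolysis had 1 rise, Pfkm (0.68 ± 0.14), and 1 fall, Hk1, among 16 genes, with a median of 0.03 (2 and 1 in the fit to the 8 arrays alone). Hk1 (-0.78 ± 0.26) lost the call without any one array except day 10 replicate 2 (adjusted p up to 0.123). None of 5 measured lymphocyte genes passed (1 fell in the fit to the 8 arrays alone), and 3 of them were not detected on any of the 8 arrays. In the unfolded protein response, 3 of 18 genes fell and none rose, with a median of -0.24 (6 in the fit to the 8 arrays alone), among them Dnajc3 (-0.71 ± 0.19). Edem1 lost its call without any one of 5 arrays (adjusted p up to 0.152) and Xbp1 without 1 array (0.078).

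The genes that changed lie within a longer course. The difference of day 12 minus day 8 uses none of the 8 arrays. Its calls do, because the spread of each gene was estimated over the whole series, these 8 included. Of the 312 genes higher at day 11, 311 were called higher at day 12 than at day 8 and 1 lower, where 24.1% of all genes were called higher. Of the 219 genes lower at day 11, 202 were called lower, 3 higher and 14 neither, where 23.3% of all genes were called lower. The same spread served to pick these genes, so their calls are not separate evidence and the shares of all genes are not a like background. The differences do not use that spread. The median of day 12 minus day 8 was 2.93 over the 312 genes, -1.99 over the 219 and -0.002 over all genes tested. Across the 10412 genes the differences correlated at r = 0.793 (Spearman's rho 0.775), a description over genes, which are not independent. Psg21 averaged 4.42 at day 8, 4.78 at day 10, 9.21 at day 11 and 13.30 at day 12. Tac2 averaged 12.07, 10.73, 8.26 and 6.46 at those 4 days. Prl3c1 and Gpr151 averaged 4.86 and 4.54 at day 12.

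The 4 genes called the opposite way at day 12 against day 8 were Ada, Hrc, Nrgn and Tnnc1, chosen after their values were seen. Ada (adenosine deaminase), an enzyme of decidua and trophoblast, averaged 7.52 at day 8, 12.99 at day 10, 11.96 at day 11 and 10.73 at day 12, so that it was lower at day 11 than at day 10 (-1.03 ± 0.32, adjusted p = 0.0275) but higher at day 12 than at day 8. Its call was lost without any one array except day 11 replicate 4 and day 10 replicate 4 (adjusted p up to 0.0744). Hrc, a calcium-binding protein of muscle, averaged 4.75, 7.76, 6.09 and 5.57 at the same days, and Nrgn (neurogranin) 5.11, 8.12, 6.98 and 5.89. All 3 had a maximum at day 10 among these days. Tnnc1, the troponin C of heart and slow muscle, ran the other way, with 11.49 at day 8, 8.19 at day 10, 9.22 at day 11 and 10.10 at day 12, the lowest mean being that of day 10.

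**Figure D5:**
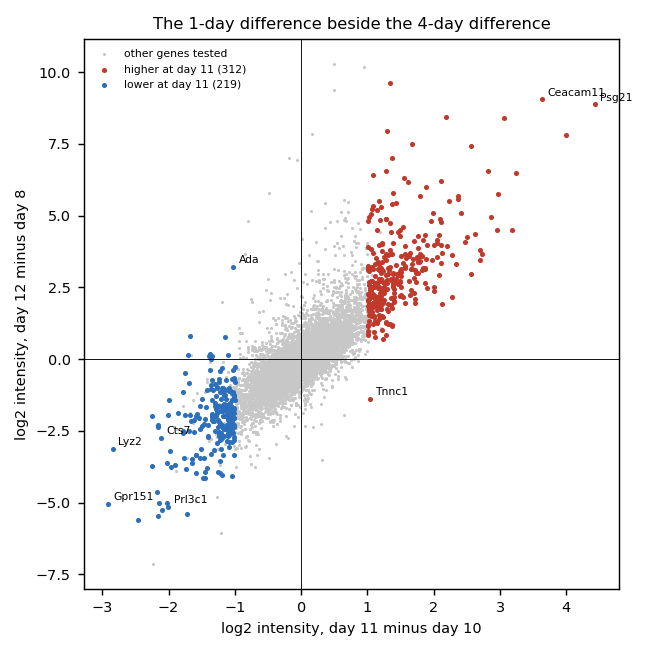
For each gene, the log2 difference of day 11 minus day 10 (x axis) is set against that of day 12 minus day 8 (y axis), which shares no array with it; genes that changed at least 2-fold are coloured. Of the 312 red genes 311 lie above 0 on the y axis, and Tnnc1 and Ada are labelled among those on the opposite side.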

How the data were processed

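Total RNA was extracted with Trizol and an RNeasy kit with DNase I, checked on a Bioanalyser, and labelled with the Ambion MessageAmp kit, per the labels' protocols. The scanner, its software and the slide of each array are not given in the sources used here. The authors deposited a table of bead intensity values, not normalized, with a detection p-value for each of 45281 probes and array, per the file headers. They also deposited a matrix of processed log2 values, which was used here as an alternative.

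From the intensities, background was corrected with limma 3.58.1 (R 4.3.3; nec, with negative controls inferred from the detection p-values and an offset of 16), followed by quantile normalization over 33 arrays and log2. Probes with a detection p under 0.01 on at least 4 arrays were kept (21107), of which 15195 had 1 gene symbol in the platform annotation. Each of 10412 genes was represented by its probe of highest mean. All 33 arrays entered the fit, with 1 mean for each group (lmFit, eBayes), day 11 minus day 10 was tested, and p-values were adjusted over all genes (Benjamini-Hochberg). The scripts were tested on simulated data. The number of arrays limits the precision. Replicate names follow the intensity table; by rank correlation the matrix numbers 16 of the 33 arrays differently, 7 of these among the 8. The labels do not say whether replicate numbers pair the days, so no block was used in the main fit. Deviations of same-numbered arrays correlated at -0.148, -0.158, -0.275 and -0.22 under the intensity table's numbers. Under those of the matrix they correlated at 0.224, 0.134, 0.061 and -0.158. Deviations from a mean of 4 arrays sum to 0 within each day, so these values cannot decide whether the days are paired.

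The genes named are the 15 largest rises and 15 largest falls of at least 2-fold without overlap, passing over symbols of clone type. Probes without a symbol were not ranked. Also named are up to 4 members of each of 41 lists (831 genes, 544 measured). They were taken by size of difference among those that passed, otherwise up to 2 by level. A set of landmark genes was named as well. Further genes, such as Psg18, Psg23, Psg29, Wnt6, En1, Otx2, Klf1 and Tal1, were named after their values were seen. The comparison, members and lists were chosen with earlier results of these data known. Promoter sequences are from RefSeq (GRCm38.p6). The 32544 promoters leave out chr18 and count identical sequences once. Alternatives changed the background correction, scaling, filters, probe choice, variance model, arrays used and minimum fold.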

Additional observations from a re-analysis of the deposited data

Results flagged for a closer look

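In 19 of 406 sets of 4 arrays checked (4.68%), over the named genes and the list means, 1 array stood apart from the other 3 by Dixon's test, and chance marks about 1 in 20 such sets. Among genes that were higher at day 11, Lhx1 had 7.17 on day 11 replicate 4, against 7.81 to 7.92 on the others, Urod had 11.77 there, against 11.90 to 11.92, and Birc5 had 10.76, against 10.99 to 11.03. Synb had 6.34 on day 10 replicate 3, against 5.36 to 5.51 on the other arrays of that day, and Cntn2 had 5.90 there, against 4.85 to 4.98.

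Among genes that were lower at day 11, Cebpa had 4.90 on day 11 replicate 3 (others 4.34 to 4.43) and Myl9 had 9.52 there (others 10.36 to 10.49). On day 11 replicate 1 Clec11a had 5.39 (others 6.11 to 6.17) and Ccl9 had 5.87 (others 6.43 to 6.51). Dnajc3 had 9.18 on day 11 replicate 4 (others 9.48 to 9.49) and 9.92 on day 10 replicate 2 (others 10.16 to 10.20). Cd244a had 7.10 on day 10 replicate 2 (others 6.70 to 6.74). On day 10 replicate 4 Cyp11a1 had 10.02 (others 9.45 to 9.50) and Mylk had 13.13 (others 13.35 to 13.38). On day 10 replicate 3 Gbp2 had 9.93 (others 10.27 to 10.30) and Ada had 13.19 (others 12.91 to 12.95).

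Of the list means, adipose tissue genes had 6.02 on day 11 replicate 3, against 5.24 to 5.37 on the other arrays of day 11. Ribosomal protein genes had 12.92 on the same array, against 12.98 or more. Glycolysis genes had 9.08 on day 11 replicate 2, against 9.18 to 9.19.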

How the results depend on the processing

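All 531 genes kept their direction under every alternative in which they were tested (525 of them with the stricter detection filter), and none of the 40 list medians changed sign under 4 other scalings, but many shrank with no background correction or with the matrix, such as Psg and Ceacam genes (0.40 and 0.44, against 1.14), liver (0.29 and 0.31, against 0.82), red cell membrane (0.43 and 0.47, against 0.92), adipose tissue (-0.59 and -0.65, against -1.31) and macrophages (-0.24 and -0.26, against -0.77). The number of calls moved with scaling and spread. With no background correction 123 genes changed (63 higher, 60 lower), and with the authors' deposited log2 matrix 134 (70 higher, 64 lower). Of the 531 genes, 486 and 492 kept an adjusted p under 0.05 there, and 117 and 127 kept the 2-fold size as well. With median scaling 123 genes were lower, and 91 list members passed, against 175. In fits to the 8 arrays alone 326 list members passed, and 325 with array weights. With no minimum fold 1477 genes passed (857 higher, 620 lower), with 1.5-fold 1245 (711 and 534), and with 3-fold 128 (89 and 39). The causes were not tested. With the replicate number as a block, 550 genes changed over 33 arrays and 611 in the 8 arrays alone, and 297 list members passed in the fit to the 8. Whether that number pairs the samples is not known. Leaving out 1 array gave 448 to 575 genes (275 to 345 higher, 173 to 241 lower) and 133 to 159 list members. Of 147 named genes that passed, 34 lost the call without some 1 array, and 22 of these without any of 4 or more arrays. Rpl41 changed sign with median scaling (-0.004) and ranged from -0.022 to 0.085 with 1 array left out, and Psg29 ranged from -0.113 to 0.108. Without the 2 dim arrays of other groups (non-pregnant replicate 4 and day 6 replicate 4), chosen after seeing the data, 576 genes changed and 244 list members passed.

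Day 11 and day 10 cannot be told apart from slide or hybridisation run, which are not given in the sources used here. Genes under the detection floor on one day have only a bound.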

Other observations

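Of 5912 detected probes that had no gene symbol, 139 changed at least 2-fold between day 11 and day 10, of which 86 were higher at day 11 and 53 lower. Of 218 further probes of the genes that changed, 210 had the same sign as the probe used, 145 of these with an adjusted p under 0.05 in limma, and 0 had the opposite sign with an adjusted p under 0.05.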
